A study of Mus musculus with 4 samples.

Results

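The semaphorins, Slits, ephrins and netrins and the plexin, neuropilin, Robo, Eph, Dcc and Unc5 receptors that read them were followed in the adult mouse hippocampus with and without the enzyme inositol polyphosphate multikinase (IPMK). Members were chosen by gene symbol alone. The symbols matched 76 of 33793 probe sets, or 74 of 30920 gene symbols once the brightest probe set stood for each gene. Of the 74, 71 are genes of ligands and receptors and 3 are transcripts named for their place on the strand opposite Plxna4. Each of the 4 arrays (Affymetrix Mouse Gene 2.0 ST) held RNA from the right hippocampus of a male, behaviorally naive mouse at postnatal day 90. The 2 mice labelled IPMK cKO carried floxed Ipmk alleles and the CaMKII-Cre transgene, which deletes Ipmk after birth in excitatory neurons of the forebrain. The 2 mice labelled IPMK WT were littermates with the same floxed alleles and no Cre. Whole tissue was measured, so cells that the transgene does not reach are included, and fewer cells of a type cannot be told apart from less RNA per cell.

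Ipmk itself read higher, not lower, in the arrays whose label names its deletion. Its probe sets read 8.44 and 8.78 (first) and 6.97 and 6.43 (second) on the log2 scale in the cKO-labelled arrays, against 7.68 and 7.71 (first) and 5.78 and 5.52 (second) in the WT-labelled arrays. The sources used here do not say which part of the gene was deleted, so whether either probe set covers it is not known, and a probe set outside it would check nothing. The paper also measured Ipmk mRNA and IPMK protein in the hippocampus of such mutants, and describes their excitatory neurons as lacking IPMK. It reports Syt2 as raised in this tissue by quantitative PCR and Western blot. In the cKO-labelled arrays Syt2 had the highest log2 fold change of all probe sets, 1.39. Whether the labels are right was not tested, and every direction below is that of the labels. The tissue markers were present: all 10 subfield genes of the hippocampus averaged between 6.87 and 9.35. Choroid plexus genes were also present, with summed linear signals of 6201 and 8521 in the cKO-labelled arrays and 9139 and 7684 in the WT-labelled arrays. Values are deposited log2 values of robust multi-array averaging (RMA), for which 29.1% of all probe sets averaged under 4, near the floor of the arrays. With 2 arrays against 2, an exact permutation test cannot give a p under 0.333, so differences were tested with limma, whose variance for each probe set borrows from all others. The number of arrays limits the precision.

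Axon guidance molecules steer growing axons by attraction and repulsion. Ligands are secreted, anchored in the membrane by a lipid or span it, and their receptors change the cytoskeleton of the growth cone. In the adult hippocampus the same families are known for shaping dendritic spines, for keeping the layers of afferent fibers apart and for limiting or promoting synapse number. Several of them also serve blood vessels and glia.

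None of the 74 genes passed the test. With Benjamini-Hochberg adjustment of the limma p over all probe sets and a threshold of 0.05, 0 of 74 were called, beside 0.0% of all probe sets. At an unadjusted p under 0.05 there were 0 of the 74, against 2.86% of all probe sets. Such a p was rarer in brighter probe sets. Of the 12286 averaging 6 or more, 34 had it with a higher and 37 with a lower mean in the cKO-labelled arrays. The lowest unadjusted p from limma were 0.0505 for Epha1, 0.0536 for Ephb4 and 0.0557 for Sema4g, each at an adjusted p of 0.9999. The group mean was higher in the cKO-labelled arrays for 38 genes and lower for 36, with a median log2 fold change of 0.00 against −0.00 over all probe sets. The largest differences were −0.30 for Epha1 and 0.29 for Sema4g, which is 1.23-fold and 1.22-fold, and Epha1 was read near the floor of the arrays.

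The confidence intervals say how much room the arrays leave. For 63 of the 74 genes (85.1%) the 95% confidence interval of the difference lay within 1.5-fold either way. It did so for 75.2% of all probe sets and for 87.8% of those averaging 6 or more. The intervals of the other 11 genes, Epha1, Epha6, Epha8, Plxna2, Plxna4os1, Plxnb1, Sema3a, Sema3b, Sema3e, Sema3g and Slit3, reached past that bound. The widest reached −0.69 for Sema3e, or 1.62-fold lower, and 0.66 for Epha6, or 1.58-fold higher. With 1 array left out, the number of intervals within 1.5-fold was between 34 and 43.

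**Figure D1:**
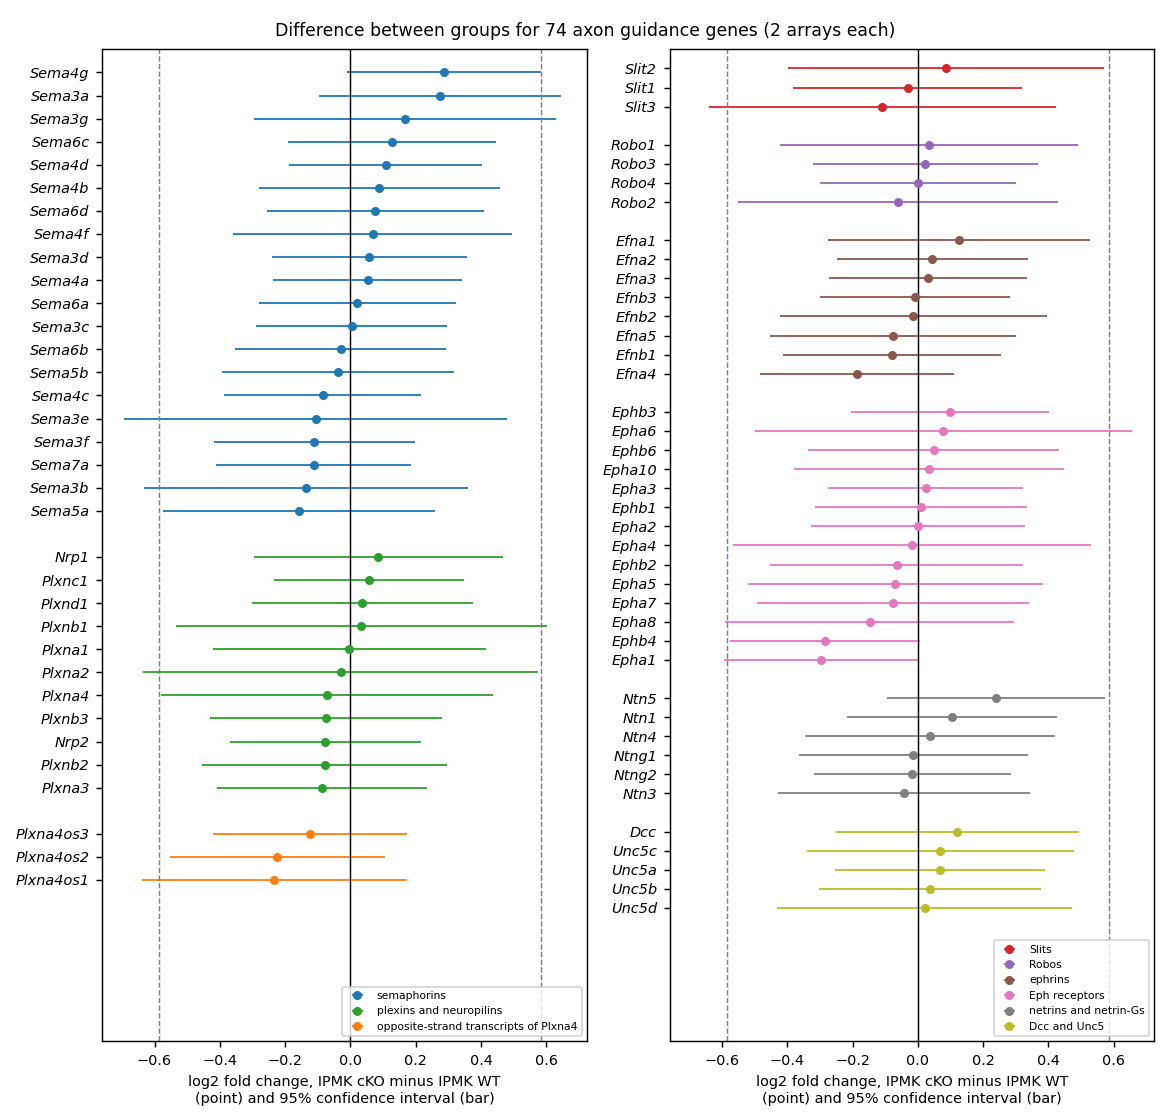
Log2 fold change (x axis, cKO-labelled minus WT-labelled arrays) with its 95% confidence interval from limma for each of the 74 genes, by family. Dashed lines mark 1.5-fold either way; all points lie between −0.30 and 0.29, and 11 intervals cross a dashed line.

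The cKO-labelled arrays lay wholly on one side of the WT-labelled arrays for 18 of the 74 genes (24.3%), against 27.2% of all probe sets. In 8 of them the cKO-labelled arrays were above (10.8%, background 12.4%) and in 10 below (13.5%, background 14.8%). The shares are near those of all probe sets. Of the 12286 averaging 6 or more, 21.6% parted by label, 1615 with the cKO-labelled arrays above and 1037 below (8.44%). Against these brighter probe sets the share of members below, 13.5%, is the higher one. It includes Epha1, Efna4 and the 3 transcripts opposite Plxna4, all of which averaged under 6. The shares were not tested, so the absence of overlap is not read as a property of these genes as a group. The widest gaps were in Sema4g, Ephb4 and Epha1, with Ephb4 singled out after its values were seen.

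The promoters of these 3 genes are shown because they belong to the largest differences. That of Epha4, a neuronal receptor whose log2 fold change was −0.02, is given for comparison. A further reason is that IPMK is known to bind the coactivator CREB-binding protein and serum response factor. The DNA motifs of CREB, to which this coactivator binds, and of serum response factor can be looked for. Each promoter runs 5′ to 3′ from 250 bases before to 50 bases after a RefSeq start in GRCm38.p6. Capitals mark GC boxes (GGGCGG on either strand) and, in Epha4, the short cAMP response element TGACG, which lies on the opposite strand there and reads CGTCA.
Sema4g, chr19:44989094-44989393, plus strand: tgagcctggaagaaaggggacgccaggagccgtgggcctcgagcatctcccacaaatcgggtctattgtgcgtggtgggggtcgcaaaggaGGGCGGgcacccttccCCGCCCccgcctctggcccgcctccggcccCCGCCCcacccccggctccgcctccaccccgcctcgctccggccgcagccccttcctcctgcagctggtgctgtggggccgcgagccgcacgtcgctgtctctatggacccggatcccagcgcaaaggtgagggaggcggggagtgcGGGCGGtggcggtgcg
Ephb4, chr5:137349859-137350158, plus strand: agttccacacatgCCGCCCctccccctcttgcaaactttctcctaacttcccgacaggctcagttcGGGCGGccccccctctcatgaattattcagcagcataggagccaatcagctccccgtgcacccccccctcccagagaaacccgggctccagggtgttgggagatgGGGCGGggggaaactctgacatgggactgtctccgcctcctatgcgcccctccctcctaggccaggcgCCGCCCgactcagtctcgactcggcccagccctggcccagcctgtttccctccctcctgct
Epha1, chr6:42373219-42373518, minus strand: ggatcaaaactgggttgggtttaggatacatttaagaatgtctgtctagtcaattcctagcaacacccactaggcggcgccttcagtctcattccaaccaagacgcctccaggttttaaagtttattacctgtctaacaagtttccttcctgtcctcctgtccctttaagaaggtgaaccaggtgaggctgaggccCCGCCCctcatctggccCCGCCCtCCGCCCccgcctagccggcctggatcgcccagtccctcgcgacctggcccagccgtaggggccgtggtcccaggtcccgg
Epha4, chr1:77515039-77515338, minus strand: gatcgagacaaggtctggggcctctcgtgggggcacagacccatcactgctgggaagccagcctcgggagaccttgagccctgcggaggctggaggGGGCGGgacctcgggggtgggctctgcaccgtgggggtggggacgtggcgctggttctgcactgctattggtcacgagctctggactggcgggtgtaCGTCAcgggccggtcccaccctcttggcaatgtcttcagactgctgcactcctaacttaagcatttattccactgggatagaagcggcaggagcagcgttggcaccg
The promoters of Sema4g and Ephb4 hold 4 GC boxes each, that of Epha1 holds 3 and that of Epha4 holds 1. None of the promoters of Sema4g, Ephb4 and Epha1 has the short element, and none of these 4 has the CArG box of serum response factor.

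RefSeq promoters were matched by gene identifier for 61 of the 74 genes, with 77 promoters. GC boxes were in 54 of the 77 (70.1%), against 35.7% of all 32851 promoters and 63.2% of the 11131 promoters whose genes averaged 6 or more on the log2 scale. The short element TGACG, on either strand, was in 10 (13.0%), among them Efnb2, Ephb1 and Sema7a, against 20.8% of all promoters. It was in 31.1% of those of brighter genes. The full element TGACGTCA, which contains the short one, was in Epha2 only (1.3%, all promoters 1.79%). The CArG box was in Robo1 and Sema4d (2.6%, all promoters 1.63%), and TATAAA in Efnb2 and Slit2 (2.6%, all promoters 13.6%). These are matches of letters in a window and no sites of binding.

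Semaphorins are the largest family here, with 20 genes. Their log2 fold changes ran between −0.16 for Sema5a and 0.29 for Sema4g with a median of 0.04, and the group mean was higher in the cKO-labelled arrays for 12 and lower for 8. Sema4g, a transmembrane semaphorin of class 4 on chromosome 19 (44989101 to 45003397), read 6.44 and 6.53 in the cKO-labelled arrays, against 6.21 and 6.19 in the WT-labelled arrays. The groups did not overlap, and the log2 fold change was 0.29 (standard error 0.12, 95% confidence interval −0.01 to 0.58). Of the 6 class 4 genes, 5 had a higher mean, Sema4a at 0.05, Sema4b at 0.09, Sema4d at 0.11, Sema4f at 0.07 and Sema4g, while Sema4c had −0.08. Sema4d, which signals through plexin-B1 and is known to promote inhibitory synapses, has a further probe set, with a log2 fold change of 0.03.

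Among the secreted class 3 semaphorins, Sema3a and Sema3f are the classical repellents of hippocampal axons, acting through neuropilin-1 and neuropilin-2. Sema3a read 4.49 and 4.54 in the cKO-labelled arrays, against 4.40 and 4.08 in the WT-labelled arrays, all close to the floor. The log2 fold change was 0.27 (standard error 0.15, unadjusted p = 0.120 from limma), and it was 0.12 without replicate 2 of the WT-labelled arrays and 0.43 without replicate 1. Sema3f ran the other way, with 6.50 and 6.46 in the cKO-labelled arrays, against 6.66 and 6.52 in the WT-labelled arrays. Its groups did not overlap by a narrow gap, at a log2 fold change of −0.11. Sema3b (−0.14), Sema3e (−0.11), Sema3c (0.00), Sema3d (0.06) and Sema3g (0.17) overlapped between groups.

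The receptors of these ligands differed less between labels than Sema3a did. Nrp1, the binding subunit for Sema3a, read 8.76 and 8.49 in the cKO-labelled arrays, against 8.64 and 8.43 in the WT-labelled arrays, a log2 fold change of 0.09. Nrp2, the subunit for Sema3f, read 7.79 and 7.77 in the cKO-labelled arrays, against 7.89 and 7.83 in the WT-labelled arrays. Its values hardly varied within a group, and the log2 fold change was −0.08 (95% confidence interval −0.37 to 0.22). Plxna3, the signaling partner of Nrp2 in the pruning of hippocampal axons and spines, had −0.09, with 6.71 and 6.54 in the cKO-labelled arrays and 6.67 and 6.76 in the WT-labelled arrays. Over the 11 plexins and neuropilins, 4 had a higher and 7 a lower mean, with a median log2 fold change of −0.03 and a range of −0.09 to 0.09.

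Plxna2 and Plxna4 bind transmembrane semaphorins of class 6 and are known for placing mossy fibers in their layer of CA3. Plxna2 read 8.38 and 7.85 in the cKO-labelled arrays, against 8.40 and 7.90 in the WT-labelled arrays, a log2 fold change of −0.03. Plxna4 read 8.92 and 8.51 in the cKO-labelled arrays, against 8.98 and 8.58 in the WT-labelled arrays, a log2 fold change of −0.07. In both genes the arrays of a group differed by far more than the groups, which gave Plxna2 the widest interval among the plexins (−0.63 to 0.57). Their ligands Sema6a and Sema6b had 0.02 and −0.03.

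Of the membrane semaphorins with known synaptic roles, Sema5a, Sema5b and Sema7a had a slightly lower mean in the cKO-labelled arrays. Sema4d, given above, had a higher one. Sema5a, which limits synapse number on dentate granule cells, read 7.95 and 7.70 in the cKO-labelled arrays, against 8.14 and 7.82 in the WT-labelled arrays, a log2 fold change of −0.16 with overlap. Its paralog Sema5b read 6.75 and 6.46 in the cKO-labelled arrays, against 6.65 and 6.63 in the WT-labelled arrays (−0.04). Sema7a is anchored by a lipid and binds plexin-C1 and integrins. It read 8.22 and 8.12 in the cKO-labelled arrays, against 8.31 and 8.25 in the WT-labelled arrays, with no overlap but a log2 fold change of only −0.11, and Plxnc1 had 0.06.

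Slits are secreted repellents that bind Robo receptors. Slit1 read 8.74 and 8.57 in the cKO-labelled arrays, against 8.80 and 8.58 in the WT-labelled arrays, a log2 fold change of −0.03. Slit2 read 7.45 and 7.25 in the cKO-labelled arrays, against 7.51 and 7.02 in the WT-labelled arrays, a log2 fold change of 0.09. Slit3, at 8.27 and 7.79 in the cKO-labelled arrays and 8.33 and 7.95 in the WT-labelled arrays, had −0.11 with an interval of −0.64 to 0.42. All 3 Slits overlapped between groups and read higher in replicate 1 than in replicate 2 of either group.

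The main neuronal Slit receptors, Robo1 and Robo2, both lie on chromosome 16. Robo1 read 8.54 and 8.19 in the cKO-labelled arrays, against 8.50 and 8.16 in the WT-labelled arrays, a log2 fold change of 0.03. Robo2 read 8.82 and 8.29 in the cKO-labelled arrays, against 8.68 and 8.55 in the WT-labelled arrays, a log2 fold change of −0.06. Robo3, the divergent receptor known from commissural axons, had 0.02, and Robo4, the receptor of endothelial cells, had 0.00 (95% confidence interval −0.30 to 0.30). Robo3 and Robo4 lie on opposite strands of chromosome 9, 2022 bases apart. None of the Robos was free of overlap.

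Ephrins are membrane ligands for Eph receptor tyrosine kinases, and signals pass in both directions across the cell contact. The 8 ephrins had a median log2 fold change of −0.01, with 3 higher and 5 lower means, and the interval of each lay within 1.5-fold. Efna3, a lipid-anchored ephrin through which astrocytes contact spines, read 9.25 and 9.22 in the cKO-labelled arrays, against 9.27 and 9.14 in the WT-labelled arrays, a log2 fold change of 0.03. Efna1, Efna3 and Efna4 stand in a row on the minus strand of chromosome 3 (89271730 to 89338028) and differed in direction. Efna1 read 6.17 and 6.24 in the cKO-labelled arrays, against 5.90 and 6.27 in the WT-labelled arrays (0.13), with overlap. Efna4 read 4.20 and 4.11 in the cKO-labelled arrays, against 4.32 and 4.36 in the WT-labelled arrays (−0.19), without overlap and near the floor.

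The transmembrane ephrins signal backward through their cytoplasmic tail, and the labels differed little in Efnb2 and Efnb3. Efnb2 read 7.89 and 7.52 in the cKO-labelled arrays, against 7.78 and 7.66 in the WT-labelled arrays, a log2 fold change of −0.01. Efnb3 read 8.76 and 8.81 in the cKO-labelled arrays, against 8.81 and 8.77 in the WT-labelled arrays, also −0.01 and with an interval of −0.30 to 0.28. Efnb1 had −0.08.

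Among the 14 Eph receptors, 7 had a higher and 7 a lower mean (median log2 fold change −0.01). The 2 largest differences of the family, both toward lower values in the cKO-labelled arrays, were in receptors known mainly from outside neurons. Epha1, known from epithelia (chromosome 6, 42358487 to 42373268), read 4.17 and 4.13 in the cKO-labelled arrays, against 4.49 and 4.40 in the WT-labelled arrays, all near the floor. Ephb4, the receptor for ephrin-B2 on venous endothelium (chromosome 5, 137350109 to 137374532), read 5.83 and 5.89 in the cKO-labelled arrays, against 6.13 and 6.16 in the WT-labelled arrays. The groups were clear of each other in both genes, with log2 fold changes of −0.30 (standard error 0.12, interval −0.59 to 0.00) and −0.28 (standard error 0.12, interval −0.58 to 0.01).

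Markers of other cell types were set beside these differences. The choroid plexus and endothelial markers had the lowest medians of the marker lists. All 5 thalamus markers had a higher mean in the cKO-labelled arrays (median log2 fold change 0.17), as did 5 of 6 astrocyte markers (median 0.06). The medians of the remaining lists lay between −0.09 and 0.05. All 7 choroid plexus markers had a lower mean in the cKO-labelled arrays, with a median log2 fold change of −0.37, none at an unadjusted p under 0.05 in limma. Their mean log2 level was 7.71 and 8.43 in the cKO-labelled arrays, against 8.58 and 8.23 in the WT-labelled arrays, so the groups overlapped. Of the 6 endothelial markers, 4 had a lower mean (median −0.11). Their mean log2 level was 6.94 and 6.97 in the cKO-labelled arrays, against 7.13 and 6.99 in the WT-labelled arrays. The groups were apart only narrowly, at 6.974 against 6.985 for the nearest arrays. Cldn5, Flt1 and Tek singly lay lower without overlap, also by narrow gaps. The same held for 14.8% of all probe sets and for 8.44% of those averaging 6 or more. The log2 fold changes of Cldn5, Flt1 and Tek were −0.21, −0.12 and −0.09. Vwf (−0.24), Pecam1 (0.00) and Slco1a4 (0.06) overlapped between groups. The endothelial markers had summed linear signals of 803 and 857 in the cKO-labelled arrays and 913 and 817 in the WT-labelled arrays. The part of either cell type in the values of Epha1 and Ephb4 was not tested.

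The other Eph receptors overlapped between groups, except for Ephb3. Epha4, which limits spine growth on contact with astrocytes, read 10.28 and 9.77 in the cKO-labelled arrays, against 10.23 and 9.85 in the WT-labelled arrays, a log2 fold change of −0.02. Epha5 read 8.48 and 8.05 in the cKO-labelled arrays, against 8.44 and 8.23 in the WT-labelled arrays (−0.07). Epha7 read 9.46 and 9.11 in the cKO-labelled arrays, against 9.46 and 9.26 in the WT-labelled arrays (−0.08). In each of them replicate 1 was above replicate 2 whatever the label.

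The EphB receptors are known for gathering glutamate receptors at excitatory synapses. Ephb1 read 7.14 and 7.08 in the cKO-labelled arrays, against 7.00 and 7.20 in the WT-labelled arrays, a log2 fold change of 0.01. Ephb2 read 6.87 and 6.61 in the cKO-labelled arrays, against 6.93 and 6.68 in the WT-labelled arrays (−0.07). Ephb3 read 6.69 and 6.78 in the cKO-labelled arrays, against 6.69 and 6.59 in the WT-labelled arrays (0.10), and its groups were apart only in the third decimal. The remaining receptors, Epha2, Epha3, Epha6, Epha8, Epha10 and Ephb6, had log2 fold changes between −0.15 and 0.08.

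Netrins attract axons through Dcc and repel them when Unc5 receptors take part. Ntn1, the founding member, read 5.77 and 5.58 in the cKO-labelled arrays, against 5.61 and 5.54 in the WT-labelled arrays, a log2 fold change of 0.10. Ntn5 had the largest difference of its family, 0.24 (standard error 0.13, unadjusted p = 0.129 from limma). It read 6.28 and 6.35 in the cKO-labelled arrays, against 6.18 and 5.96 in the WT-labelled arrays, and its groups did not overlap. Without replicate 2 of the WT-labelled arrays the difference was 0.13. Ntn3 had the lowest value, −0.04, and Ntn4, a netrin of basement membranes, had 0.04.

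Netrin-Gs are membrane-anchored relatives that bind postsynaptic partners in place of Dcc and mark separate inputs along a dendrite. Ntng1 read 8.22 and 8.02 in the cKO-labelled arrays, against 8.04 and 8.23 in the WT-labelled arrays, a log2 fold change of −0.01 that its further probe set shared (−0.01). Ntng2 read 6.40 and 6.52 in the cKO-labelled arrays, against 6.50 and 6.45 in the WT-labelled arrays (−0.02). Their partners Lrrc4c and Lrrc4 had −0.09 and −0.10. None of these 4 genes passed the test.

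The 5 netrin receptors among the members, Dcc and the Unc5 genes, had a slightly higher mean in the cKO-labelled arrays. Every one overlapped between groups. Neo1, which is no member and was listed with the co-receptors, had −0.03. Dcc, the attractive receptor, read 7.70 and 7.46 in the cKO-labelled arrays, against 7.57 and 7.35 in the WT-labelled arrays, a log2 fold change of 0.12 (95% confidence interval −0.25 to 0.49). Unc5a read 9.19 and 9.02 in the cKO-labelled arrays, against 9.09 and 8.99 in the WT-labelled arrays (0.07). Unc5c read 7.90 and 7.56 in the cKO-labelled arrays, against 7.76 and 7.56 in the WT-labelled arrays (0.07). Unc5b and Unc5d had 0.04 and 0.02, the smallest of the family.

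The 3 transcripts opposite Plxna4 were the only family whose members all lay lower in both cKO-labelled arrays than in both WT-labelled arrays. Of all probe sets 14.8% lay lower without overlap, and these dim transcripts come from 1 locus. The groups of Plxna4os1 were apart only narrowly, at 4.699 against 4.708 for the nearest arrays. Plxna4os1 read 4.70 and 4.32 in the cKO-labelled arrays, against 4.71 and 4.77 in the WT-labelled arrays, a log2 fold change of −0.23. Plxna4os2 read 5.30 and 5.09 in the cKO-labelled arrays, against 5.38 and 5.46 in the WT-labelled arrays (−0.22). Plxna4os3, under the dim level at 3.75 and 3.79 in the cKO-labelled arrays and 3.84 and 3.94 in the WT-labelled arrays, had −0.12. The transcripts lie on the plus strand of chromosome 6 between 32303829 and 32515576, inside the span of Plxna4 on the minus strand. None passed the test, and without replicate 2 of the cKO-labelled arrays the difference of Plxna4os1 was −0.04.

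**Figure D2:**
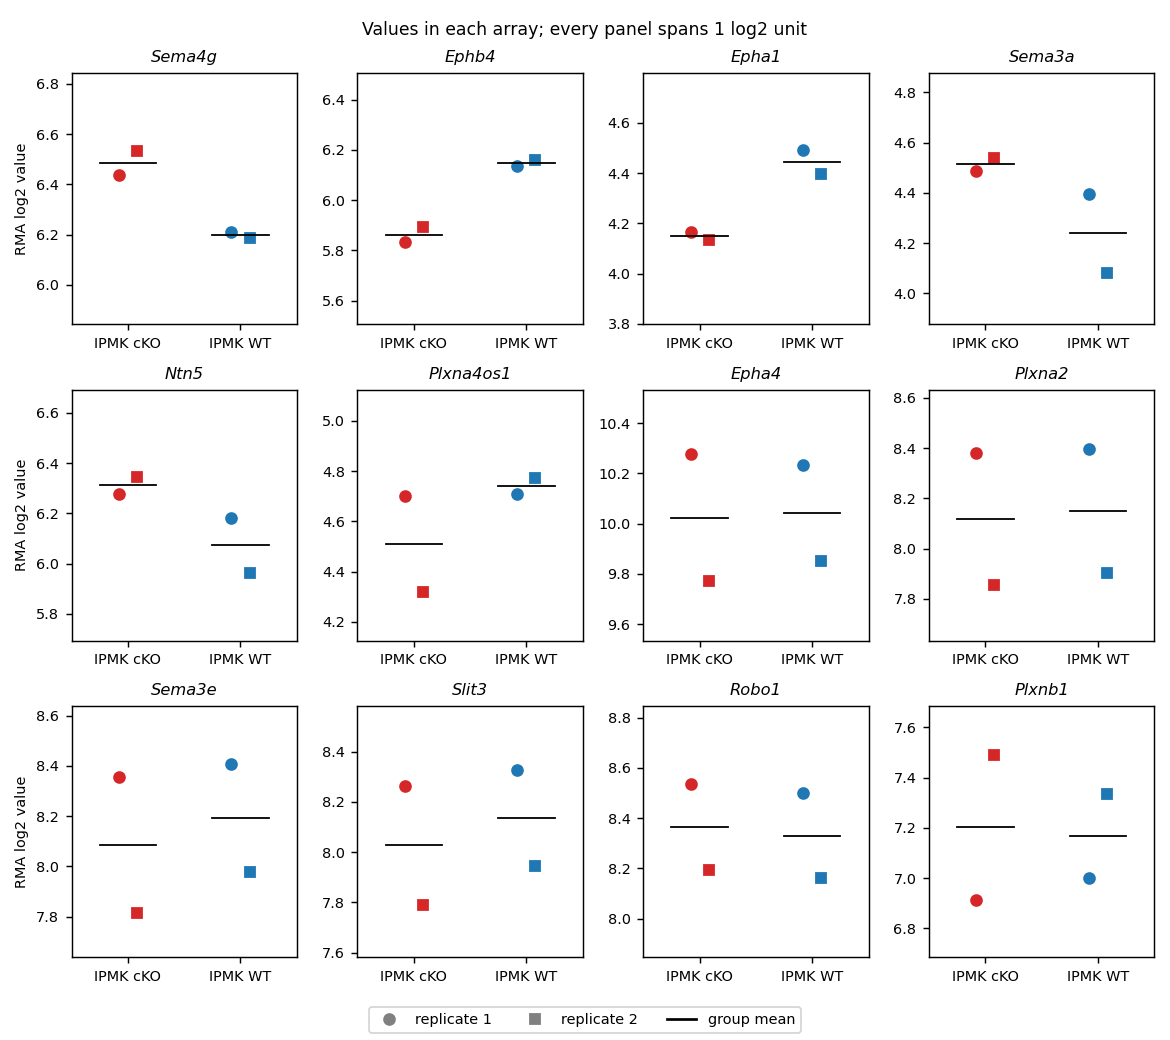
RMA log2 value (y axis) in each cKO-labelled (left, red) and WT-labelled (right, blue) array for 12 genes; circles are replicate 1, squares replicate 2, and lines group means. Sema4g, Ephb4 and Epha1 part by label, while Epha4, Plxna2, Sema3e, Slit3, Robo1 and Plxnb1 part by replicate number.

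The partners through which these receptors act were taken from a list of 77 genes, 19 co-receptors and adhesion partners and 58 cytoplasmic effectors, all of them measured. None of them had a limma p under 0.05, adjusted or not, so those given here were chosen by role or after their values were seen. The mean was higher in the cKO-labelled arrays for 48 (62.3%) and lower for 29, with a median log2 fold change of 0.02. The effectors had 40 higher (69.0%) and 18 lower means, at a median of 0.04. Of all probe sets 48.4% had a higher mean, and of those averaging 6 or more 56.2% did. The range was −0.12 for Flrt3, a membrane protein that binds Unc5 receptors, to 0.20 for Met, the receptor of hepatocyte growth factor, and 75 of the 77 intervals lay within 1.5-fold. Dpysl2, the collapsin response mediator downstream of Sema3a, read 11.48 and 11.39 in the cKO-labelled arrays, against 11.40 and 11.41 in the WT-labelled arrays. Its log2 fold change was 0.03, and that of Chn1, the Rac regulator downstream of Epha4, was −0.01.

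Many members were ordered by replicate number rather than by label. Both replicate 1 arrays lay above both replicate 2 arrays for 33 of the 74 genes (44.6%). The same order was found in 22.7% of all probe sets and in 24.5% of those averaging 6 or more. The opposite order held for 10 genes (13.5%), against 22.0% of all probe sets and 33.0% of those at 6 or more. For 49 of the 74 genes the mean difference between replicate numbers was larger in size than the difference between labels. The same held for 20138 of 33793 probe sets and for 8537 of the 12286 averaging 6 or more. That count therefore does not set these genes apart. The labels do not say what a shared number stands for, so these are values and no test.

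By family, replicate 1 was on top in 8 of 14 Eph receptors (6 of 9 EphA and 2 of 5 EphB). The same held for all 3 Slits, 3 of 4 Robos and 4 of the 5 Dcc and Unc5 genes. The counts were lower in semaphorins (7 of 20), ephrins (3 of 8), netrins and netrin-Gs (1 of 6) and the Plxna4 opposite-strand transcripts (0 of 3). Plexins and neuropilins had 4 of 11, with 3 of 4 in class A and 0 of 3 in class B. The difference of replicate 1 minus replicate 2 was 0.53 in the cKO-labelled and 0.49 in the WT-labelled arrays for Plxna2, 0.58 and 0.37 for Epha6, 0.54 and 0.43 for Sema3e and 0.51 and 0.38 for Epha4. Replicate 2 was on top in Plxnb1, at −0.58 in the cKO-labelled and −0.34 in the WT-labelled arrays. It was also on top in Plxnb3, a plexin of oligodendrocytes, and in Efna1, Ntn3, Ntn4, Robo4, Sema3c, Sema4b, Sema6d and Unc5b.

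**Figure D3:**
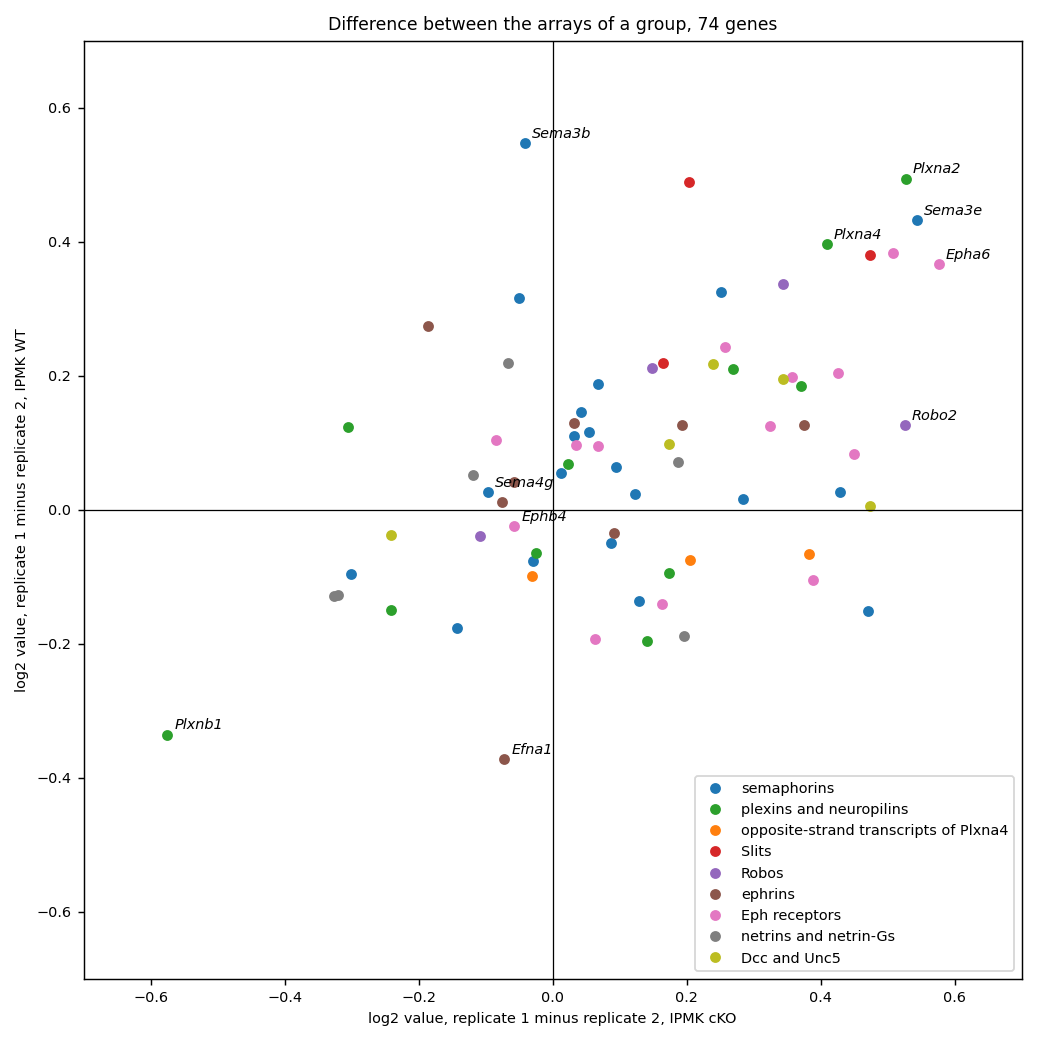
Log2 value of replicate 1 minus replicate 2 in the cKO-labelled arrays (x axis) and in the WT-labelled arrays (y axis) for the 74 genes, coloured by family. Plxna2, Sema3e and Epha6 lie far to the upper right and Plxnb1 to the lower left, while Ephb4 and Sema4g lie near the centre.

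Marker genes of cell types were also ordered by replicate number. All 6 astrocyte markers and all 6 oligodendrocyte markers read lower in both replicate 1 arrays than in both replicate 2 arrays, as did 5 of 6 microglial markers. The mean log2 level of the astrocyte markers was 8.95 and 9.48 in the cKO-labelled arrays and 8.93 and 9.41 in the WT-labelled arrays. All 5 thalamus markers followed the same order. In contrast, 4 of 5 excitatory neuron markers, 5 of 10 subfield markers, 4 of 5 meningeal markers and 2 of 4 mural markers read higher in both replicate 1 arrays. The median difference of replicate 1 minus replicate 2 was 0.42 for the meningeal and 0.19 for the excitatory neuron markers. Their part in the values of the guidance genes was not tested.

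The order was most frequent in genes with a long annotated span. Among the 23 ligand and receptor genes with the longest annotated span (156.0 to 1097 kb), 17 had both replicate 1 arrays on top (73.9%). Those in the middle of the order of span (25.2 to 154.4 kb) numbered 11 of 23 (47.8%), and the shortest genes (4.64 to 24.9 kb) 5 of 25 (20.0%). The median difference of replicate 1 minus replicate 2 was 0.25, 0.09 and 0.03. Among all probe sets at a mean of at least 6 and a span as long as the first of these groups, 43.8% showed the order. By label, the median log2 fold changes of the 3 groups were 0.01, 0.00 and 0.00.

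**Figure D4:**
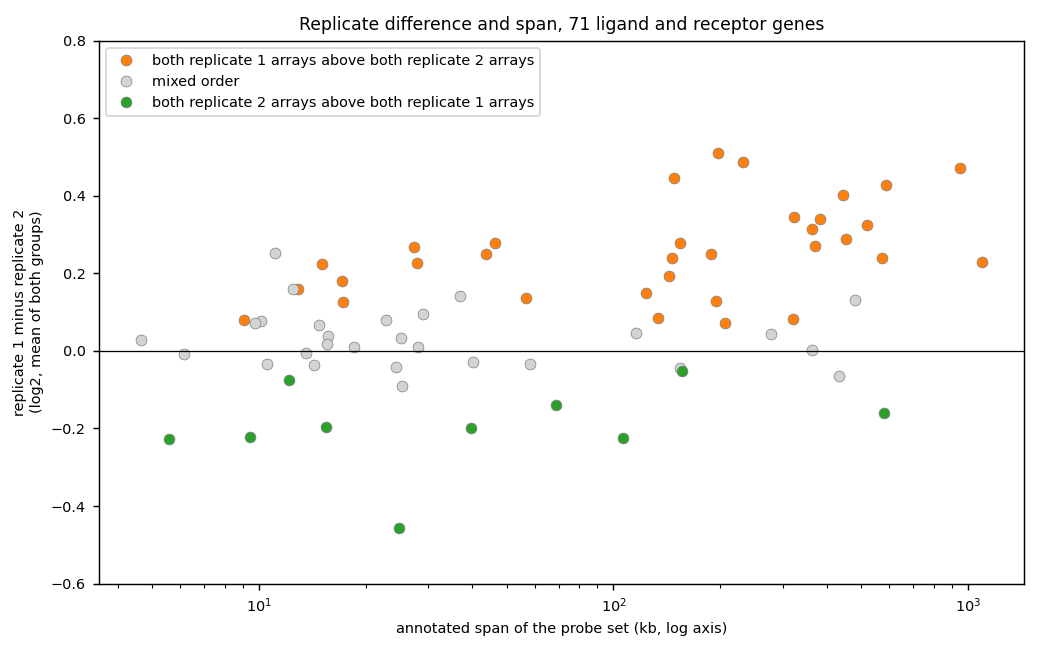
Mean difference of replicate 1 minus replicate 2 over both groups (y axis, log2) against the annotated span of the probe set (x axis, kb, log scale) for 71 ligand and receptor genes. Orange points, with both replicate 1 arrays on top, are 17 of the 23 genes with the longest span and 5 of the 25 with the shortest; green points have the opposite order and grey points a mixed one.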

How the data were processed

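Gene-level values were made by the authors with RMA in Expression Console from scans of Mouse Gene 2.0 ST arrays, and deposited as log2 values of 33793 probe sets in 4 arrays. RMA subtracts background and quantile-normalizes, so a difference in total signal cannot be seen; array medians lay between 5.10 and 5.15. The 5 rows without a probe identifier were left out. The 4 repeat columns and the series matrix differed from them by at most 8.88e-16. Columns of the authors' own comparison (fold, LPE score, adjusted p) were not used. Members and gene lists were chosen with earlier results of these data known. For each symbol the probe set with the highest mean was kept; none of the 74 is marked as cross-hybridizing, and each has 14 to 45 probes. By Entrez identifier 72 matched a GRCm38.p6 table and overlapped their gene there; the build of the array coordinates is not given in the sources used here. The difference of group means, cKO minus WT as labelled, was fitted for every probe set in limma 3.58.1 under R 4.3.3 (prior degrees of freedom 3.69, prior variance 0.0207) with no replicate block. Benjamini-Hochberg adjustment ran over all of them, and the code was tested on simulated data. Labels give 2 mice per group. The limma p-values rest on the spread between them only in part, because each variance is drawn toward the prior variance from all probe sets. Named were members with an unadjusted p under 0.05 (none), the highest and lowest log2 fold change of each family, and members with known hippocampal roles; Ephb4, Plxna4os2, Plxnb1, Plxnb3, Epha6, Epha8, Sema3b, Sema3e and Sema3g were added after their values were seen, and the remaining members are given by their differences. Alternatives are listed in the closing section; the methods' LPE test was rewritten (100 bins, span 0.2). Figures used Python 3.11.15 and matplotlib 3.10.9. Raw scans were not analysed here.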

Additional observations from a re-analysis of the deposited data

How the results depend on the processing

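Under 16 alternatives no member passed an adjusted p under 0.05, the lowest (limma, 1 array left out) being 0.974. Members with an unadjusted p under 0.05 numbered 2 with an intensity trend, 2 with a replicate block, 1 after renewed quantile normalization, 3 and 2 with only probe sets of a mean log2 of at least 4 and 6, 2 with unique probe sets and 3 by the methods' t-test, against 0 with limma; they were Ephb4, Epha1 and Sema4g. The shares of all probe sets in the same settings were 2.38%, 4.44%, 2.9%, 2.26%, 1%, 2.9% and 3.55%, against 2.7%, 2.7%, 1.35%, 4.11%, 3.39%, 2.7% and 4.05% of the members. The t-test also gave 1 pathway partner, and its intervals lay within 1.5-fold for 34 of the 74 genes. With 1 array left out, which assumes that a lone array varies like the other group, those counts were 0 to 1 (Plxna4os1, without replicate 1 of the cKO-labelled arrays) and 34 to 43 intervals: 35 without replicate 1 and 34 without replicate 2 of the WT-labelled arrays, 43 and 41 for the cKO-labelled arrays. The median log2 fold change then ran from −0.075 to 0.061. The log2 fold change of Sema4g lay between 0.24 and 0.34, that of Ephb4 between −0.31 and −0.26 and that of Epha1 between −0.34 and −0.25. Of 757 values for 48 named members, 695 kept their sign and 62 uncalled ones did not. Settings that changed only the variance estimate or the choice of probe sets fitted left the difference itself unchanged. The sign could not change there, so the pooled count is no measure of stability. Only 15 of the 48 named members kept their sign in every setting. Without the transcripts opposite Plxna4, chosen after seeing the data, 61 of 71 intervals lay within 1.5-fold. The replicate block put 70 intervals within 1.5-fold; the replicate differences of the groups had a correlation of 0.244 across probe sets, which are not independent, and with 2 pairs this does not show that the numbers pair the mice. Apart from fewer arrays or probe sets, the cause was not tested.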
